A study of Mus musculus with 6 samples.

Results

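Reck, an inhibitor of membrane-linked metalloproteinases, was measured together with other inhibitors and with metalloproteinases, not all of them its targets. These were the tissue inhibitors Timp1, Timp2 and Timp3, the matrix metalloproteinases Mmp14 and Mmp2, and the sheddases Adam8, Adam10 and Adam17. The 9 genes, Reck included, were taken by symbol from the platform annotation. Every probe set that carries one of the symbols alone was used, which gave 25 probe sets of 34958 with a single symbol (9 of 18194 genes). The set was chosen by the log2 intensity of Reck, which is higher in the arrays labelled Runx1-KO than in Control. The difference of Reck between the groups is therefore a description and not a finding, and the differences of the other 8 genes come from the same contrast and are given without a test.

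The arrays were made from mouse leukemias of the C57BL/6 strain. In the group labelled Runx1-KO the bone marrow from which each leukemia grew had lost Runx1, the gene of a blood transcription factor, by excision. In the group labelled Control the gene was intact. Both groups carried MLL-ENL, a fusion of a histone methyltransferase with an elongation factor, introduced into the marrow before it was grafted into congenic recipients, and cells were taken when the recipients were moribund. Each group held 3 arrays from 3 independent leukemias, numbered 1 to 3 as labelled. How Runx1 was excised, and the age of the animals, are not given in the sources used here.

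RECK is held on the outer face of the cell membrane by a lipid anchor. It inhibits the gelatinases MMP2 and MMP9, the membrane-type enzyme MMP14 and the sheddase ADAM10, and in brain endothelium it acts as a co-receptor for WNT7 ligands. TIMPs are small secreted proteins that block the zinc site of metalloproteinases, and ADAM10 and ADAM17 release the outer parts of receptors, adhesion molecules and cytokines, among them Notch and TNF. In leukemic marrow such enzymes are known for cutting matrix and for shedding surface proteins.

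The bases before the start of a gene are the only sequences shown, because the groups are labelled by the state of Runx1, whose protein binds DNA at the letters TGTGGT or, less often, TGCGGT. RefSeq promoter windows of the GRCm38.p6 build were found for 8 of the 9 members, and the 250 bases before the start set by each window were searched on both strands. The search was for these letters, for GGGCGG, the GC box of SP1-type factors, and for CCAAT, the CCAAT box. For Reck, Adam8 and Adam10 that start lies inside the RefSeq span of the gene. The last bases of the Reck and Adam10 windows, and the whole Adam8 window, are therefore within that span. The windows of Reck (the member with the higher signal in Runx1-KO), of Mmp14 (the member that holds TGTGGT) and of Adam10 (bright on every array) follow, 5′ to 3′ on the strand of the gene, with matches to any of the 4 motifs in capitals.
Reck, chr4:43875280-43875529, plus strand: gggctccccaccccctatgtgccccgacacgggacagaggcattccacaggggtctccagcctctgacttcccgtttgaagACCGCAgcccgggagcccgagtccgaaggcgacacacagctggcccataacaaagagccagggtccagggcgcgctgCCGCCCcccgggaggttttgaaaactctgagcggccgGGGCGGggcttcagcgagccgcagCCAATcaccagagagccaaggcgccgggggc
Mmp14, chr14:54431348-54431597, plus strand: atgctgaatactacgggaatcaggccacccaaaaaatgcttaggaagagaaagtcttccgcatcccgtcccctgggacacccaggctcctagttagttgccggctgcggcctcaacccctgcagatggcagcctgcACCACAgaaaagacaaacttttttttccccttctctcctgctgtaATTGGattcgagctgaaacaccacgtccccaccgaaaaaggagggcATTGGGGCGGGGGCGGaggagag
Adam10, chr9:70678732-70678981, plus strand: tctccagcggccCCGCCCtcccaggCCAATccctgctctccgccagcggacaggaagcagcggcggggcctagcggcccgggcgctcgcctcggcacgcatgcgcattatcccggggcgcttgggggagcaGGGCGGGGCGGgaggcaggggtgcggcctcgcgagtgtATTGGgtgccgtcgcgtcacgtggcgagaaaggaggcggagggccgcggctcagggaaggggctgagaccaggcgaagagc

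The Reck window held TGCGGT once, on the opposite strand between 169 and 164 bases before the start. It also held 2 GC boxes and 1 CCAAT box. TGTGGT was present in 14% of all 32851 windows, TGCGGT in 5.1%, GGGCGG in 32.7% and CCAAT in 33.8%, and 18.6% held at least one of the 2 RUNX spellings. Among the other members with a window, Mmp14 held TGTGGT once, on the opposite strand, and its capitals near the start are a CCAAT box that overlaps the first of 2 GC boxes. Adam10 held 3 GC boxes, of which 2 overlap, and 2 CCAAT boxes. Neither RUNX spelling was found in the windows of Timp1, Timp2, Timp3, Adam8, Adam10 and Adam17. These matches describe letters in a window and were not set against binding data.

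Signals were read against a background limit, the highest of 27 bacterial spike-in probe sets without a target on each array. It was 17.0, 19.6 and 18.6 on Runx1-KO 1, 2 and 3 and 17.0, 14.1 and 22.5 on Control 1, 2 and 3. Of the 25 probe sets, 10 lay above the limit on all 6 arrays, 4 on some and 11 on none. A probe set below the limit carries no usable level, and levels of different probe sets were not compared. Of 10 listed markers of myeloid and MLL-fusion leukemia, 9 were above the limit on all 6 arrays, among them the blood cell gene Ptprc and the fusion target Hoxa9. Runx1 itself was at 1128, 1573 and 1629 in Runx1-KO and at 680.3, 1021 and 850.0 in Control, and where its probe sets lie relative to the excised part is not known here, so groups are named as labelled. Y-linked genes were below the limit on every array labelled Runx1-KO and above it on every Control array, so sex and genotype cannot be told apart. The X-linked Xist was above the limit on all 6 arrays, at 1624, 1857 and 1895 in Runx1-KO and at 331, 85.4 and 25.3 in Control. Whether the Control samples held cells of both sexes was not tested.

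Reck stood at 95.2, 89.0 and 77.9 in Runx1-KO 1, 2 and 3, against 5.22, 7.07 and 2.66 in Control 1, 2 and 3. Every array labelled Runx1-KO was above its background limit, every Control array was below its own, and the groups did not overlap. The spread among the 3 arrays labelled Runx1-KO was small, 1.22-fold between the highest and the lowest. Because Control was at background the difference has only a lower bound: Reck was at least 4.97-fold higher in Runx1-KO, with each Control array raised to its limit. The fitted log2 difference was 4.24 ± 0.38 (moderated SE, n = 3 per group) on the deposited values, but it rests on Control values under the limit. It was 2.31 when every array was raised to its limit and 2.30 with an offset of 16 added before the logarithm. Reck was represented by 1 probe set, so no second probe set of the gene could be compared with it.

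**Figure D1:**
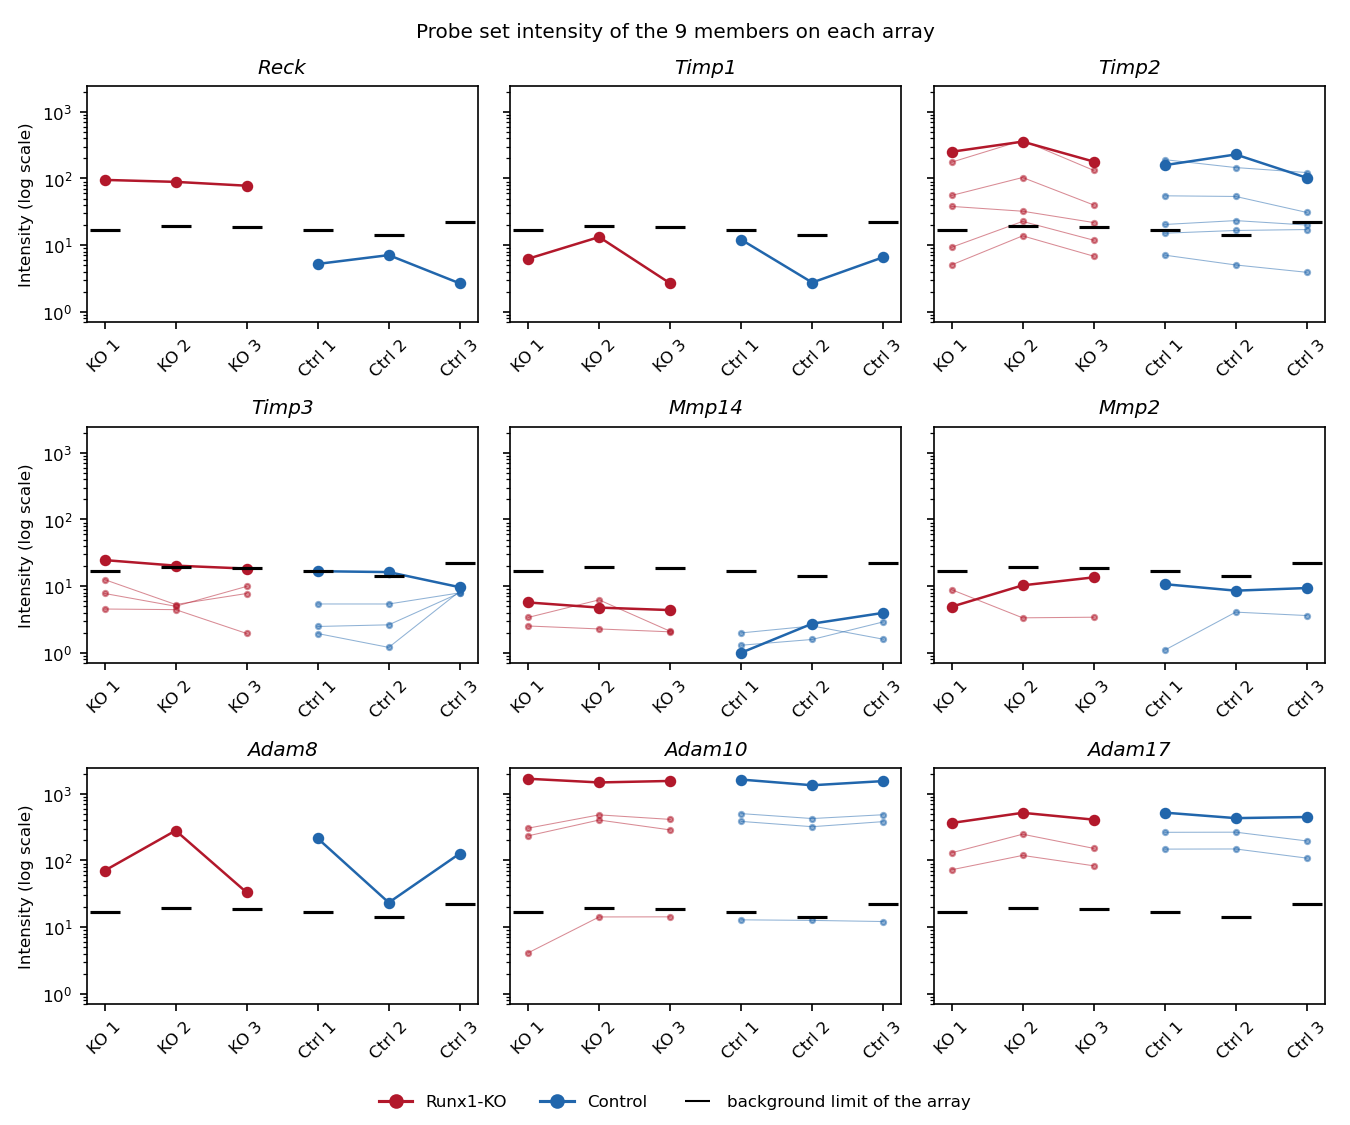
Intensity on a log axis of all 25 probe sets of the 9 members on each array, Runx1-KO in red and Control in blue, with the probe set used for the gene in bold, the others thin, lines joining the 3 arrays of a group and a black dash at the background limit of each array. Reck lies between 77.9 and 95.2 in Runx1-KO and below the limit in Control, Timp1, Mmp14 and Mmp2 lie below the limit on every array, and Adam8 spreads widely in both groups.

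Over the 9 members, 1 of 9 genes (Reck) was past an adjusted p of 0.05 in limma's fit over all genes, beside 0.0879% of 18194 genes, and nothing is read from this count since Reck was chosen for it. Reck did not stay past the threshold when any 1 array was left out, without both arrays numbered 1 or with the replicate number as a block. In those fits at most 1 gene higher in Runx1-KO and 2 lower passed over all genes. The groups did not overlap in 3 of 9 members, Reck, Timp3 and Mmp14, beside 20.9% of all genes, and in 3 of their 25 probe sets, beside 20.4% of all probe sets. Mmp14 was below background on all 6 arrays, so its order carries no level. Timp3 had arrays of both groups below their limits, so its order is not settled either.

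Of the 3 soluble inhibitors, Timp2 was above background on every array, Timp3 on some and Timp1 on none. Timp2, which inhibits MMPs and also takes part in the activation of pro-MMP2 at the cell surface by MMP14, had 6 probe sets. The brightest was at 252, 358 and 179 in Runx1-KO 1, 2 and 3, against 159, 229 and 102 in Control 1, 2 and 3. The groups overlapped, with Runx1-KO 2 highest and Control 3 lowest. The difference was 0.71 ± 0.39 on the log2 scale, or 1.63-fold. All 3 Timp2 probe sets above background on every array were higher in Runx1-KO, by 1.36-fold to 1.63-fold, and Runx1-KO 2 was the highest array in each. Without Runx1-KO 2, the log2 differences of these 3 probe sets were 0.07, 0.46 and 0.02, so for 2 of the 3 that array carried nearly all of the difference.

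Timp3, the inhibitor that binds to matrix and blocks ADAM17, lay at the edge of detection. Its brightest probe set was at 24.6, 20.3 and 18.3 in Runx1-KO, above the limit on 2 of 3 arrays, against 16.7, 16.2 and 9.62 in Control, above it on 1 of 3. The groups did not overlap in the deposited values. Runx1-KO 3 lay below its limit, though, and the limit of Control 3, 22.5, lay above the values of Runx1-KO 2 and 3. The order of the groups is therefore not settled, and no lower bound is stated for Timp3. The other 3 Timp3 probe sets were below background on all 6 arrays, and 1 of them was lower in Runx1-KO.

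Timp1, an inhibitor induced by cytokines in many cells, was below background on every array. It read 6.24, 13.2 and 2.67 in Runx1-KO, against 12.1, 2.74 and 6.58 in Control, with full overlap. Timp1 lies on the X chromosome, whose dosage cannot be told apart from genotype here.

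Of the enzymes that RECK restrains, Mmp14 and Mmp2 were not detected above background. Mmp14, which anchors in the membrane, cuts collagen and activates pro-MMP2, was below the limit on all 6 arrays with all 3 of its probe sets. Its brightest probe set ran from 4.37 to 5.68 in Runx1-KO and reached 3.97 at most in Control. Mmp2, the gelatinase that MMP14 activates, was below the limit with both of its probe sets, and its brighter one ran from 4.90 to 13.5 in Runx1-KO and from 8.54 to 10.7 in Control. No fold is stated for either gene.

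Adam10, the sheddase of Notch and another target of RECK, was bright and steady. Its brightest probe set was at 1686, 1484 and 1563 in Runx1-KO 1, 2 and 3, against 1639, 1347 and 1556 in Control 1, 2 and 3. The groups overlapped and the log2 difference was 0.06 ± 0.18, with a spread within groups that 87.8% of the 9703 genes above background on every array exceeded. Adam10's 2 other probe sets above background gave log2 differences of -0.26 ± 0.24 and -0.27 ± 0.26, opposite in sign to the brightest. In both of them Runx1-KO 1 was the lowest array, and without it the differences were -0.08 and -0.09.

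Adam17, the enzyme that releases TNF from the cell surface, had 3 probe sets, all above background on every array and all lower in Runx1-KO with overlapping groups. The brightest was at 365, 520 and 410 in Runx1-KO 1, 2 and 3, against 523, 432 and 449 in Control 1, 2 and 3. Its log2 difference was -0.13 ± 0.21, against -0.58 ± 0.27 and -0.50 ± 0.30 for the other 2 probe sets. Runx1-KO 1 was the lowest of the 6 arrays in all 3, and without it the differences were -0.01, -0.43 and -0.31. That array also had a 3' to 5' Gapdh signal ratio of 7.10, a measure of RNA degradation, against 2.67 to 3.02 on the other 5 arrays. Its 3' to 5' ratio for beta-actin was 1.11, against 1.03 to 1.10 on the others. The part of RNA quality in the values of Adam10 and Adam17 was not tested.

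Adam8, a sheddase of granulocytes and monocytes, varied more within the groups than between them. It was at 70.3, 281 and 33.1 in Runx1-KO 1, 2 and 3, against 215, 23.3 and 127 in Control 1, 2 and 3. The range was 8.51-fold within Runx1-KO and 9.20-fold within Control, while the log2 difference between them was 0.01 ± 1.07. Only 0.124% of the 9703 genes above background on every array had a larger spread within groups. With 1 probe set and 1 array per leukemia, biological and technical parts of this spread could not be separated.

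**Figure D2:**
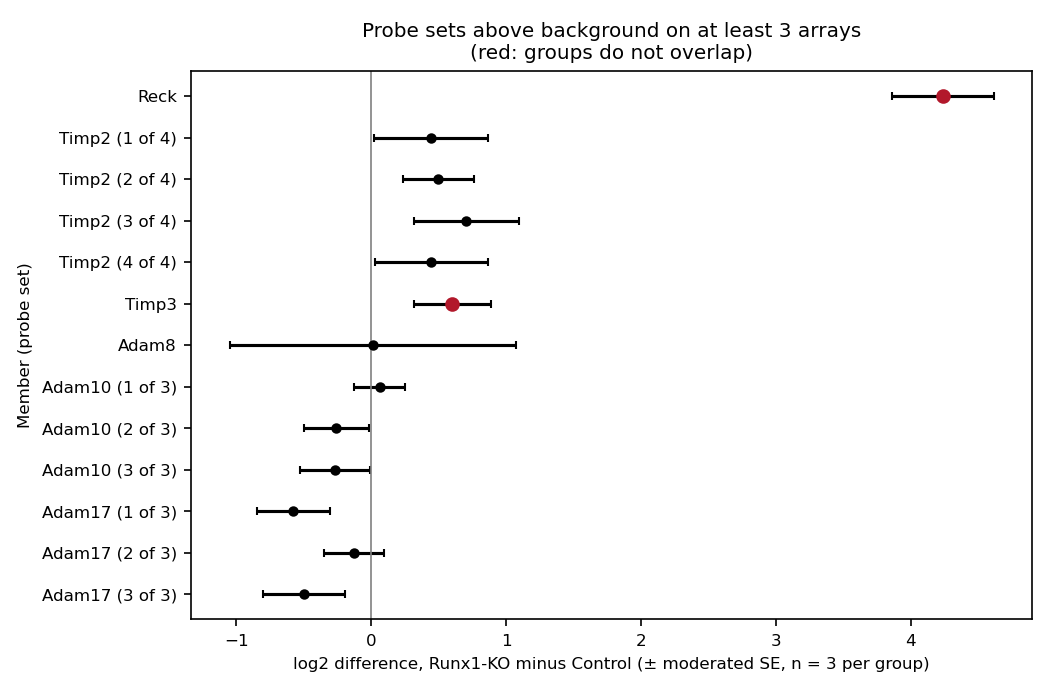
Log2 difference, Runx1-KO minus Control, with the moderated SE (n = 3 per group), of the 13 member probe sets above background on at least 3 arrays, with probe sets whose groups do not overlap in red. Reck stands at 4.24 on Control values below background, so only its lower bound of 4.97-fold is a measured size, while the Timp2 probe sets lie between 0.44 and 0.71 and those of Adam17 between -0.58 and -0.13.

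The genes that act with these proteins were then read from 6 lists of matrix metalloproteinases, ADAM proteinases, activators and partners, WNT7 pathway genes, shed membrane proteins and matrix substrates. Of 89 distinct genes measured, 0 passed limma's test over all genes, beside 0.0879% of all genes, and the lowest adjusted p was 0.108. At an unadjusted p under 0.05 there were 15 of 89 (16.9%), 10 higher and 5 lower, beside 12.6% of all genes. The groups did not overlap in 16 of 89 (18%), beside 20.9% of all genes.

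Among 14 other matrix metalloproteinases, 6 were higher and 8 lower, with a median log2 difference of -0.13 beside -0.01 over all genes. Mmp8, the collagenase of neutrophil granules, was at 111, 86.3 and 87.3 in Runx1-KO, against 49.1, 20.6 and 44.4 in Control, without overlap (1.41 ± 0.37 on the log2 scale, adjusted p = 0.251). Mmp9, the neutrophil gelatinase that RECK also inhibits, was at 424, 226 and 240 in Runx1-KO, against 378, 83.5 and 266 in Control. These groups overlapped, and the log2 difference was 0.49 ± 0.60 (adjusted p = 0.776). Mmp24, a membrane-type enzyme, had a difference of -0.34 ± 0.19 without overlap (adjusted p = 0.510), although 1 of its 3 probe sets had the opposite sign. Mmp19 had a difference of 0.10 ± 0.32. Mmp9 was thus above background on every array, and Mmp14 and Mmp2 on none.

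Of 14 other ADAM and ADAMTS genes, 10 were higher and 4 lower (median 0.18). On their brightest probe sets, Adamts10 (0.19 ± 0.21), Adam33 (0.17 ± 0.24), Adam15 (-0.21 ± 0.31) and Adamts5 (-0.10 ± 0.19) each differed by less than their standard error. The other Adamts10 probe set, also above background on all 6 arrays, gave 0.91. In Adam15 2 of 4 probe sets had the opposite sign.

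Of 15 activators and partners, 5 were higher and 10 lower (median -0.14). Furin, a protease that cuts the inhibitory prodomain from MMP14, ADAM10 and ADAM17, was at 273, 218 and 185 in Runx1-KO, against 108, 105 and 126 in Control, without overlap. Its log2 difference was 0.98 ± 0.22, or 1.98-fold, and did not pass (adjusted p = 0.207). Rhbdf1, an inactive rhomboid that carries ADAM17 to the surface, was at 37.0, 29.5 and 42.5 in Runx1-KO, against 49.9, 47.9 and 52.6 in Control (-0.48 ± 0.21, adjusted p = 0.406). Bsg, the MMP inducer also called CD147, had a difference of -0.36 ± 0.23, and Tspan17, a tetraspanin partner of ADAM10, was at most 27.1 on any array.

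For the role of RECK as a WNT7 co-receptor, 9 genes were measured, 5 higher and 4 lower (median 0.06). The co-receptor gene Lrp6 was at 306, 298 and 371 in Runx1-KO, against 515, 435 and 441 in Control, without overlap (-0.51 ± 0.19, adjusted p = 0.355), but its other probe set gave 0.49. Lrp5 (-0.16 ± 0.24) and the brightest probe set of the beta-catenin gene Ctnnb1 (-0.03 ± 0.17) differed by less than their standard error. All 3 Ctnnb1 probe sets were above background on every array and lower in Runx1-KO, the farthest at -0.48. Of the 9 genes, 3 were below background on all 6 arrays.

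Of 22 membrane proteins known to be shed by ADAM10 or ADAM17, 11 were higher and 11 lower (median -0.05). Il1r2, a receptor that traps interleukin-1 without signalling, was at 568, 459 and 643 in Runx1-KO, against 76.1, 30.0 and 89.8 in Control, without overlap (3.22 ± 0.44, adjusted p = 0.108). Csf1r, which encodes the M-CSF receptor of monocytes, was at 844, 978 and 915 in Runx1-KO, against 1982, 1360 and 1723 in Control (-0.87 ± 0.21, adjusted p = 0.226). Mertk, a receptor for dying cells, had a difference of -0.68 ± 0.35, and the TNF receptor gene Tnfrsf1a one of 0.41 ± 0.22. Il1r2 also stands among the mature neutrophil markers and Csf1r among those of monocytes.

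Of 15 matrix genes, 10 were higher and 5 lower (median 0.16), and 5 were below background on all 6 arrays. The basement membrane collagen gene Col4a1 was at 48.2, 155 and 85.6 in Runx1-KO, against 35.6, 40.8 and 64.3 in Control, with overlap (0.92 ± 0.47, adjusted p = 0.467). The proteoglycan gene Vcan and the laminin gene Lamc1 were each above background on 2 of 3 Control arrays, with overlapping groups. Col1a2 was at most 27.4 on any array, and 2 of its 3 probe sets had the opposite sign to the brightest.

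**Figure D3:**
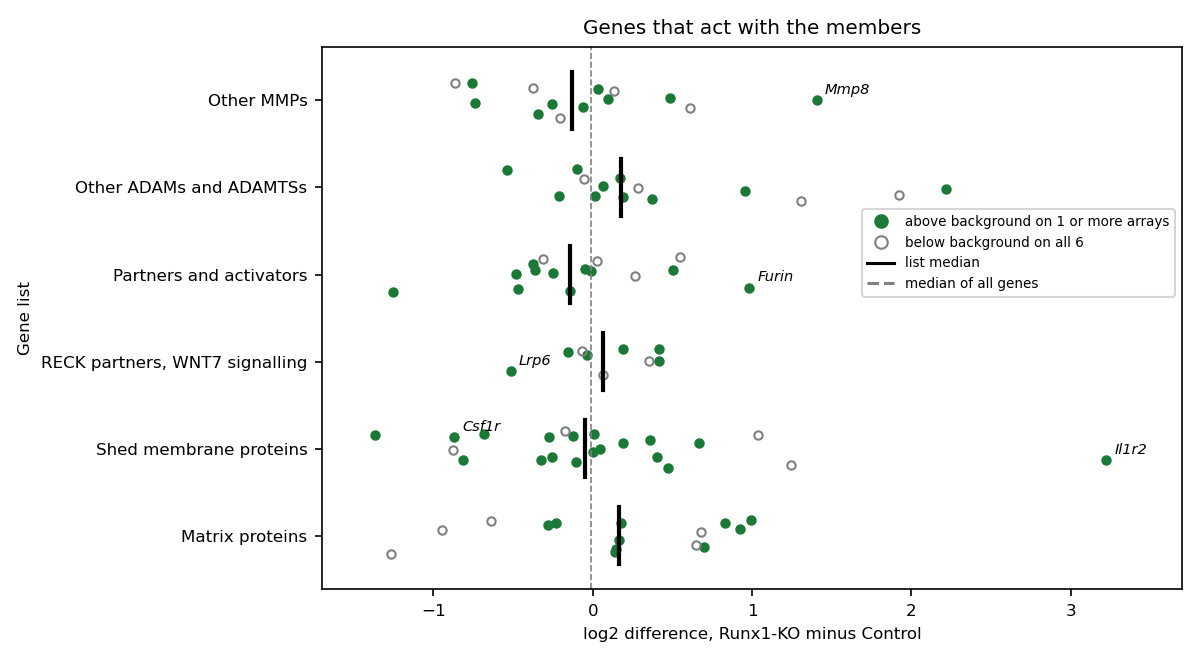
Log2 difference, Runx1-KO minus Control, of each measured gene in the 6 lists, filled where the gene was above background on at least 1 array and open where it was below on all 6, with the list median as a black bar and the median of all genes as a dashed line. Medians lie between -0.14 and 0.18, and Il1r2 at 3.22 stands farthest from 0.

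Reck, Timp3, Mmp14 and Mmp2 are genes of fibroblasts and endothelium, so markers of those cells were read beside them. Of 18 such markers, 7 were below background on all 6 arrays, among them the fibroblast genes Dcn, Lum and Col3a1 and the endothelial genes Cdh5 and Kdr. Col1a1, Pdgfrb, Acta2 and Pecam1 were above it on all 6, and the other 7 on some arrays. Of the 18, 10 were higher and 8 lower in Runx1-KO, with a median log2 difference of 0.03 and 0 past limma's test, beside 0.0879% of all genes. At an unadjusted p under 0.05 there was 1 of 18 (Acta2, lower), beside 12.6% of all genes. The summed intensity of the 18 ranged from 362 to 422 in Runx1-KO and from 371 to 743 in Control. Control 1 lay within the range of Runx1-KO, and Control 2 and 3 lay above it. The part of stromal and endothelial cells in the signal of Reck was not tested. In bulk samples fewer cells of a type and less RNA per cell cannot be told apart.

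Summed markers of 4 other blood cell types did not overlap between the groups and those of erythroid and B cells did, and 0 of the genes in these lists passed limma's test, beside 0.0879% of all genes. The summed intensity of 11 mature neutrophil markers ranged from 16578 to 19170 in Runx1-KO and from 8626 to 13283 in Control, with all 11 higher and 8 at an unadjusted p under 0.05, beside 12.6% of all genes. That of 10 megakaryocyte and platelet markers ranged from 830 to 1315 in Runx1-KO and from 492 to 741 in Control, with 8 of 10 higher and 4 at an unadjusted p under 0.05. That of 12 monocyte and macrophage markers ranged from 3417 to 3802 in Runx1-KO and from 5289 to 7641 in Control, with 11 of 12 lower and 8 at an unadjusted p under 0.05. That of 9 T and NK cell markers ranged from 91.8 to 128 in Runx1-KO and from 149 to 241 in Control, with 7 of 9 lower and 5 at an unadjusted p under 0.05. Above background on all 6 arrays were 10 of the 11 neutrophil, 8 of the 12 monocyte, 4 of the 10 megakaryocyte and 1 of the 9 T and NK markers. The T and NK sum thus holds many values below the limit, which carry no usable level. Among the megakaryocyte markers, Thbs1 was at 81.7, 312 and 206 in Runx1-KO, against 10.6, 33.7 and 9.82 in Control. The separation of the megakaryocyte sums leans on this gene. Groups did not overlap in 4 of these 10 markers (Thbs1, Selp, Vwf and Gp6, the last lower), beside 20.9% of all genes. They overlapped in Itga2b, Pf4, Gp9, Ppbp, Itgb3 and Gp1bb. The mean log2 values of all 10 erythroid markers were lower in Runx1-KO, 0 of them at an unadjusted p under 0.05. Only 1 of the 10 was above background on all 6 arrays. Control 1 was the highest array for each of them and stood apart with a sum of 7017, against 848 to 1283 on the other 5 arrays. The shared direction therefore leans on that array. B cell sums overlapped, from 346 to 585 in Runx1-KO and from 364 to 523 in Control. The part of these cells in the signal of Reck was not tested. Without Control 1 the fitted log2 difference of Reck was 4.33.

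**Figure D4:**
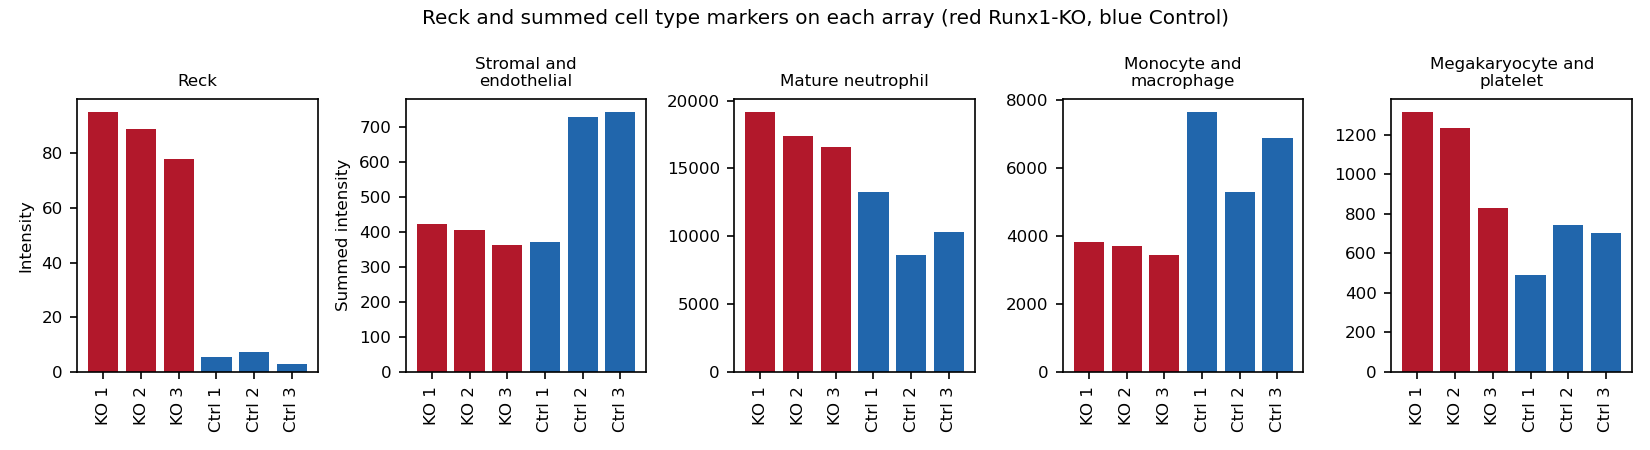
Reck intensity and the summed intensity of 4 marker lists on each array, bars from 0, Runx1-KO in red and Control in blue. Reck, the neutrophil sum and the megakaryocyte sum are higher on all 3 arrays labelled Runx1-KO, the monocyte sum is lower on all 3, and the stromal sum is highest on Control 2 and 3. The separation of the megakaryocyte sum leans on Thbs1.

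The genes most like Reck over the 6 arrays were ranked by the Pearson correlation of log2 intensity among 11424 genes above background on at least 3 arrays. The 6 arrays fall into the 2 groups, so this ranking largely repeats the difference between them. The order among the highest correlations also rests on Control values of Reck below background. The first 6 named genes were Dsp, the desmosomal linker desmoplakin (r = 0.996), Ppp1r9a (r = 0.995), Asap1, a regulator of ARF GTPases (r = 0.994), Fbxw9 (r = 0.992), Agtrap (r = 0.992) and Lgalsl (r = 0.991). Dsp was at 235, 210 and 178 in Runx1-KO, against 60.9, 64.0 and 43.5 in Control, a log2 difference of 1.90 ± 0.23 (adjusted p = 0.0879). Lgalsl, a galectin-like gene, had the same form as Reck: 57.8, 47.2 and 48.0 in Runx1-KO, all above background, against 5.62, 9.62 and 2.62 in Control, all below it, or at least 2.90-fold higher. Ppp1r9a was above background on all arrays labelled Runx1-KO and no Control array, but 3 of its 5 probe sets had the opposite sign, as did 1 of 3 for Asap1. Lgalsl and Ppp1r9a thus entered the ranking only through the arrays labelled Runx1-KO. After the group means were removed, the highest correlations were with Tmem106b, Glb1l and Tnnt1 (r = 0.997, 0.992 and 0.988), on Control values of Reck below background.

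The genes next to Reck on chromosome 4 were read for their own differences. Of the 10 nearest measured genes, 5 on each side in the order of GRCm38.p6, 0 were past limma's test, 1 (Gne) had an unadjusted p under 0.05, beside 0.0879% and 12.6% of all genes, 6 were below background on all 6 arrays, and their log2 differences ran from -1.18 to 1.36. The nearest gene on the far side, Glipr2, was at 349, 979 and 449 in Runx1-KO, against 720, 356 and 412 in Control, with overlap (0.18 ± 0.46). Clta, which encodes a clathrin light chain, was at 2924, 2792 and 2954 in Runx1-KO, against 3216, 3301 and 3304 in Control (-0.18 ± 0.16). The 5 genes before Reck, 4 of them olfactory receptor genes, were all below background.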

How the data were processed

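Per the labels' protocols, fragmented cDNA from 6 leukemias carried a biotin label (NuGEN Ovation) and was read on 1-colour arrays of 45101 probe sets. As deposited, each value was a linear intensity of a probe set on a scale shared by the arrays. The authors' probe summary, background correction and normalization are not stated in those sources. Symbols came from the platform annotation, of which 34958 probe sets had 1 symbol, 932 several and 9211 none. For a gene with several probe sets the one of highest mean log2 intensity was used, giving 18194 genes.

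Two-sided moderated tests on log2 intensity came from limma 3.58.1 under R 4.3.3, with no covariate and Benjamini-Hochberg adjustment over all genes at 0.05. The fit was tried on simulated normal values, with changes planted in genes of below-median spread. These had no background floor, so that trial does not bear on dim probe sets. The background limit follows an earlier look at these arrays. Members and lists were chosen with earlier results of these data known. All 9 members were named, and from each list up to 4 genes past the test or of lowest p that were above background in a whole group, then the 6 genes most like Reck and 3 within groups. Marker genes, the neighbours of Reck and genes named only under alternatives lie outside that rule. Medians per array were 24.4 to 26.0, and 3 arrays per group limit the precision. Alternatives covered scaling, offset, background floor, filter, probe set choice, variance model, array weights, replicate block and left-out arrays.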

Additional observations from a re-analysis of the deposited data

How the results depend on the processing

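Reck, chosen for its difference, was higher in Runx1-KO under all 17 alternatives, which is a description and not support. The filter, variance model and replicate block cannot change a fitted difference here. The choice of probe set cannot change that of a gene with 1 probe set, such as Reck. Its log2 difference was 3.84 to 4.55 when 1 array was left out, 2.30 with an offset of 16 before the logarithm and 2.31 with arrays raised to their background limits. The last 2 settings lift the dim Control values by construction. Among the other members, Timp2 and Timp3 were higher in Runx1-KO under every alternative run (0.40 to 0.99 and 0.19 to 0.74). Adam17 was lower in all but 1 (-0.40 to 0.07), and the sign of Adam8 (-0.93 to 0.83) and Adam10 (-0.22 to 0.12) changed. The alternatives reuse the same arrays, so these signs are descriptions too. With arrays raised to their limits Timp3 stood at 0.19, beside 0.07 for Timp1, Mmp14 and Mmp2, and its order is not settled. Timp1, Mmp14 and Mmp2 were below background, and the filter on dim genes left them out.

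Of the 10 genes lower in Runx1-KO in the main fit, 3 were the Y-linked Eif2s3y, Kdm5d and Uty. The counts of genes past the test were 6 higher and 10 lower. They became 25 and 39 with the offset, 54 and 87 with arrays raised to their limits, 14 and 20 over genes above background on at least 3 arrays, 39 and 65 with a variance trend and robust fitting, 27 and 44 with array weights, and 17 and 19 at an adjusted p under 0.1. With any 1 array left out limma gave 1 higher and 1 to 2 lower, and 0 of 9 members passed. Without both arrays numbered 1 it gave 0 and 0, with 0 members past, and 2318 genes at an unadjusted p under 0.05. Of the pathway genes, 1 passed with the offset and 1 with raised arrays (Il1r2 in both), 2 with the trend (Il1r2 and Csf1r) and 1 with array weights (Adam12, below background on all 6 arrays and singled out after its values were seen). The causes were not tested.

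The replicate numbers did not pair the arrays. Same-numbered deviations from the group means correlated at -0.01, -0.09 and 0.04, and 1 of 6 arrays correlated best with its own number. With the replicate block the counts were 0 higher and 0 lower, with 0 members past, and 1929 genes at an unadjusted p under 0.05. Signal over background also limits these data, with 11 of 25 member probe sets below it on every array.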
